A study of Mus musculus with 24 samples.

Results

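The Id, Hes and Hey repressors, with the Notch receptors and the ligand Jag1 that feed into them, were followed as 10 genes in C2C12 cells: Id1, Id2, Id3, Id4, Hes1, Hey1, Heyl, Notch1, Notch3 and Jag1. They are 10 of the 18194 genes named on the arrays, taken as every probe set annotated to one of these symbols, which gave 20 probe sets, 19 on the design labelled MA and 1 on the design labelled MB. C2C12 is an established mouse myoblast line that can leave the cell cycle and fuse into multinucleate muscle fibres in culture. Biotin-labelled material made from total RNA was read on oligonucleotide arrays. The 4 groups were DM at 5 mM glucose, DM at 25 mM glucose, GM at 5 mM glucose and GM at 25 mM glucose, with 3 cultures each. The labels give only the abbreviations DM and GM, which in this line commonly mean differentiation and growth medium, and they state no time in medium, no other medium component and no length of exposure to glucose. Every culture was hybridised to both designs, 24 arrays in all, and the number of arrays limits the precision. The series asks whether calorie restriction alters the differentiation of muscle precursors. All cultures came from this 1 cell line.

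Id proteins are helix-loop-helix proteins without a DNA-binding region. They pair with E proteins and so keep MyoD family factors from acting on E-box sites, and BMP signals acting through Smad proteins are known to raise Id transcription. Notch receptors are cut when a Delta or Jagged ligand on a neighbouring cell binds them, and the released intracellular part acts with Rbpj to switch on the repressors of the Hes and Hey families. Both systems are known for holding back muscle differentiation.

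In short, 7 of the 9 testable genes differed between the media at each glucose level, and they moved both ways. Id1, Id2, Id3 and the receptor Notch3 were lower in DM than in GM, whereas the receptor Notch1 and the repressors Hey1 and Heyl were higher. The Notch3 result is that of its brighter probe set, and the other did not pass the test. The calls of Notch3 and Id2 at 25 mM were lost under some other settings. Hes1 and Jag1 did not pass the test. In the main fit glucose changed none of the 9 past the threshold in either medium. Id2 in DM and Hes1 in GM passed it under some other settings.

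Promoter sequence was shown for 2 pairs of genes. Id2 and Id3 moved in the same direction between the media, and Notch1 and Notch3, by their brighter probe sets, in opposite directions. The RefSeq promoter table (GRCm38.p6) matched 6 of the 10 genes, Id2, Id3, Id4, Notch1, Notch3 and Jag1, and Id1, Hes1, Hey1 and Heyl were not matched. The lines give the 250 bases before the annotated start, 5′ to 3′ on the strand of the gene. The regions are chr12:25096093-25096342 on the minus strand for Id2, chr4:136143572-136143821 on the plus strand for Id3, chr2:26503823-26504072 on the minus strand for Notch1 and chr17:32166891-32167140 on the minus strand for Notch3. Capitals mark matches to CANNTG (the E-box), TGGGAA (the core of the Rbpj site), GGCGCC (a GC-rich Smad element) or CAGAC (a Smad element), on either strand.
Id2: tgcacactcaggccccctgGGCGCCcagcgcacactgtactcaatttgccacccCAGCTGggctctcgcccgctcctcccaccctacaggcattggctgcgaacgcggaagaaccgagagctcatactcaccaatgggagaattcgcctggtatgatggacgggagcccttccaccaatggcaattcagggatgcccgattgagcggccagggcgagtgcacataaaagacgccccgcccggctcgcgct
Id3: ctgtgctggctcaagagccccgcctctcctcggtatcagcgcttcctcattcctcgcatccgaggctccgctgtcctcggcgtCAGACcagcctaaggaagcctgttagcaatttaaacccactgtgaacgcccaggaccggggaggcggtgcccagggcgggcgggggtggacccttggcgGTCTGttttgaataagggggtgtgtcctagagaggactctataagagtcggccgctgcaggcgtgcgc
Notch1: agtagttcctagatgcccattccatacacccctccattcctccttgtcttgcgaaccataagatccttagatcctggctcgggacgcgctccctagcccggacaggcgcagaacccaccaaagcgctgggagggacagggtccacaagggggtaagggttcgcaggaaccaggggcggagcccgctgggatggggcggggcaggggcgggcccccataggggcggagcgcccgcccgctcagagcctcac
Notch3: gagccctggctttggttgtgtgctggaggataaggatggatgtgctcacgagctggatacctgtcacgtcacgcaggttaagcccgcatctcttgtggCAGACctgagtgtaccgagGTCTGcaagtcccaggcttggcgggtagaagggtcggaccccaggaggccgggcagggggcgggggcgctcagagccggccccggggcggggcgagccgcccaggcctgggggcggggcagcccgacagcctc
The search covered 250 bases before and 50 after the start of each gene, and no 2 matches overlapped. In that window Id2 had GGCGCC at position -231 and an E-box at -196, and Id3 had CAGAC at -167 and, on the other strand, at -68. Notch1 matched none of the 4 motifs. Notch3 had CAGAC at -152 and, on the other strand, at -133. Jag1 had CAGAC at -209 and an E-box at -82, and Id4 had the Rbpj core at -245 and GGCGCC at -148. Of 32851 promoters of the same length, 72.3% held CANNTG, 25.6% TGGGAA, 11.9% GGCGCC and 49.6% CAGAC. These matches describe the letters only.

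Values are probe set intensities on the authors' linear scale, and each change is a log2 difference of intensity plus 20 with its standard error (SE). A probe set was tested where its mean intensity exceeded the 40th percentile on that design, which was 35.5 on MA and 63.7 on MB, and was called at an adjusted p under 0.05 (limma, Benjamini-Hochberg). Of the 20 probe sets 14 were tested, so that 9 genes had at least 1. Id4 had none. A gene with several tested probe sets is represented by the brightest one that names it alone, MA preferred. Levels of different probe sets are not comparable with each other.

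The cultures carried the marks of muscle cells in both media and of a changed state in DM. Myog, the factor that drives terminal muscle differentiation, averaged 6250.0 ± 1993 in DM and 20.6 ± 5.61 in GM at 5 mM glucose (SD, n = 3 each). Mki67, a marker of cycling cells, averaged 138 ± 9.40 in DM and 932 ± 58.7 in GM at 5 mM, and 278 ± 21.7 in DM and 866 ± 137 in GM at 25 mM (SD, n = 3 each). Myod1, which marks the lineage, did not pass the test in either medium comparison (0.29 and 0.30 on the log2 scale). All 9 genes of the muscle list were tested and 7 were called higher in DM at both glucose levels. Over all tested probe sets 21.3% were called in either direction at 25 mM and 17.6% at 5 mM. Markers of osteoblasts, adipocytes, endothelium and blood were mostly dim, and those of pericytes and smooth muscle were not. The test was reached by 1 of 3 measured osteoblast genes, 0 of 3 adipocyte genes, 1 of 6 endothelial and blood genes and 4 of 6 pericyte and smooth muscle genes. Their summed intensities were 96.2 to 237, 33.8 to 64.6, 109 to 159 and 5821 to 14783 in DM at 5 mM, and 82.5 to 178, 26.0 to 51.8, 114 to 135 and 6726 to 13756 in DM at 25 mM. In GM they were 93.1 to 192, 62.2 to 66.4, 107 to 115 and 3494 to 5440.3 at 5 mM, and 177 to 297, 58.7 to 160.5, 180 to 204 and 4406 to 4456 at 25 mM. The muscle list summed to 21307 to 34529 in DM at 5 mM and 25028 to 41558 in DM at 25 mM. In GM it summed to 4057 to 4745 at 5 mM and 4033 to 4617 at 25 mM. The pericyte and smooth muscle list was thus about as bright as the muscle list in GM, though different probe sets are not comparable. In the pericyte and smooth muscle list Acta2 was called higher in DM at both glucose levels and Pdgfrb and Cspg4 lower. Myh11 of that list averaged 10.1 or less in every group. The leukocyte marker Ptprc averaged 15.4 or less and the adipocyte marker Adipoq 10.2 or less. The part of other cell types in the results below was not tested. In such bulk RNA, fewer cells with a transcript and less of it per cell cannot be told apart.

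Readings of the 18S ribosomal RNA control fell into 2 ranges, for which the labels give no reason. They were 23.0 to 48.1 on MA in 4 cultures (DM at 5 mM culture 2, DM at 25 mM culture 3, and GM at 5 mM cultures 1 and 2), the low-18S cultures, while 8 high-18S cultures had 279 to 1267. No GM culture at 25 mM was low-18S. Results are therefore also given with the 18S range as a block (the 18S block) and for the 8 high-18S cultures alone. Only 1 GM culture at 5 mM (culture 3) is high-18S, so every high-18S value that uses this group rests on a single culture there, which is assumed to vary like the other groups. The 4 low-18S cultures alone give no such value, since they lack 1 group and hold at most 2 cultures of any other.

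The medium comparisons ask what changed in DM relative to GM. At 25 mM glucose 7 of the 9 tested genes were called, 3 higher and 4 lower in DM, against 21.3% of all 27081 tested probe sets. Among all probe sets called at 25 mM, 46.1% were higher, or 65.4% after median centring, a scaling that moves the median change of all probe sets from -0.09 to 0.07. At 5 mM glucose 7 of 9 were again called, 3 higher and 4 lower, against 17.6% of all probe sets. The median log2 change of the 9 genes was -0.14 at 25 mM and 0.26 at 5 mM, beside -0.09 and -0.03 over all tested probe sets. In the same 7 genes the DM and GM cultures did not overlap at either glucose level, which held for 35.7% of probe sets at 25 mM and 31.3% at 5 mM. With the 18S block 7 were called at each glucose level, against 6881 of all 27081 probe sets at 25 mM and 5931 at 5 mM. Within the high-18S cultures 7 were called at 25 mM, against 5367 of all probe sets. At 5 mM the high-18S fit has 1 GM culture, and its calls are not counted here.

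**Figure D1:**
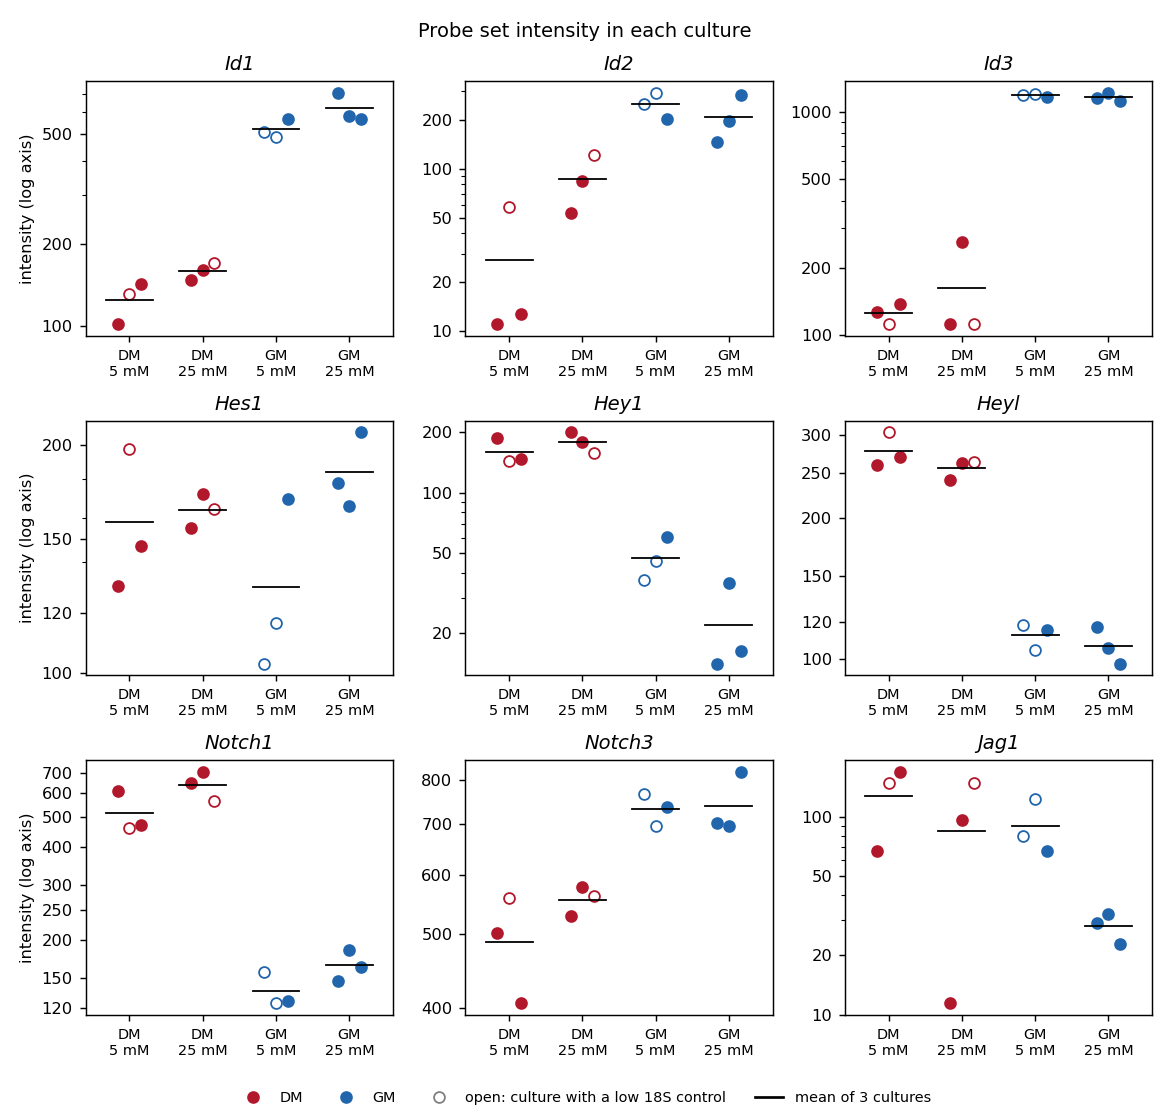
Probe set intensity (vertical log axis) in each of 12 cultures for the 9 genes with a tested probe set, by group, with open circles for low-18S cultures and a line at the mean of 3 cultures. Id1, Id2 and Id3 lie lower in every DM culture than in any GM culture, Hey1, Heyl and Notch1 lie higher, and the groups of Hes1 overlap.

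The Id genes were the ones with the deepest falls. Id1 (probe set 1425895_a_at; chromosome 2, 152736251 to 152737410, GRCm38.p6) read 102, 131 and 142 in DM at 5 mM and 148, 160.1 and 169 in DM at 25 mM, against 510.3, 486 and 565 in GM at 5 mM and, for GM at 25 mM, 708, 583 and 569. Its log2 change in DM against GM was -1.91 (SE 0.14, adjusted p = 1.03e-07 with limma) at 5 mM and -1.83 (SE 0.14, adjusted p = 1.56e-07) at 25 mM. Every DM culture lay below every GM culture, and the medium changes at the 2 glucose levels were nearly the same size.

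Id3 (1416630_at; chromosome 4, 136143822 to 136145392) had the largest change of the 9 tested genes at both glucose levels with the pseudocount of 20. With a pseudocount of 1 that of Id2 at 5 mM was larger (-3.52). The intensity of Id3 was 126, 112 and 138 in DM at 5 mM and 112, 260.4 and 112 in DM at 25 mM, against 1185, 1204 and 1169 in GM at 5 mM and, for GM at 25 mM, 1158, 1220.1 and 1117. DM culture 2 at 25 mM stood above the other 5 DM cultures and still far below GM. The log2 change was -3.06 (SE 0.22, adjusted p = 9.34e-08 with limma) at 5 mM and -2.80 (SE 0.22, adjusted p = 2.30e-07) at 25 mM.

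Id2 (chromosome 12, 25093799 to 25096092) was measured by 2 tested probe sets. The brighter, 1422537_a_at, read 11.1, 58.2 and 12.8 in DM at 5 mM and 53.3, 83.7 and 121 in DM at 25 mM, against 249.6, 293 and 201 in GM at 5 mM and, for GM at 25 mM, 145, 196 and 285. DM lay below GM throughout, and 2 of the DM readings at 5 mM were below 35.5. The DM mean at 5 mM, 27.4, was also below it, so the probe set was tested through its other groups. On the log2 scale it changed by -2.62 (SE 0.34, adjusted p = 3.66e-05 with limma) at 5 mM and -1.11 (SE 0.34, adjusted p = 0.0198) at 25 mM. The call at 25 mM was lost under median centring (-0.92, adjusted p = 0.0562), with a pseudocount of 1 (-1.29, adjusted p = 0.0592), without DM culture 1 at 25 mM (-0.87, adjusted p = 0.0868) and without GM culture 3 at 25 mM (-0.88, adjusted p = 0.0931). The pseudocount also set the size at 5 mM, from -1.80 with 64 to -3.52 with 1.

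The other Id2 probe set, 1435176_a_at, read 20.8, 42.4 and 29.1 in DM at 5 mM and 49.5, 47.1 and 112 in DM at 25 mM, against 216, 245 and 159 in GM at 5 mM and, for GM at 25 mM, 173, 221 and 155. It was also called lower, by -2.16 (SE 0.26, adjusted p = 2.08e-05) at 5 mM and -1.24 (SE 0.26, adjusted p = 0.00213) at 25 mM. Its DM mean at 5 mM, 30.8, lay under 35.5 too. The 2 probe sets correlated at r = 0.94 over the 12 cultures, which share the same arrays and the split by medium. The third, 1453596_at, was too dim to test, with 9.82 to 24.7 in DM and 28.6 to 48.0 in GM.

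Id4 (chromosome 13, 48261116 to 48266028), a family member best known from neural and mammary tissue, had 3 probe sets and none was tested. They read 0.767 to 98.1 over all 12 cultures, and their 4 group means ran from 3.74 to 46.0.

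Of the receptors, Notch1 and Notch3 moved in opposite directions by their brighter probe sets. Notch1 (1418634_at; chromosome 2, 26457902 to 26503822) read 611, 460.1 and 474 in DM at 5 mM and 645, 704 and 564 in DM at 25 mM, against 157, 124 and 126 in GM at 5 mM and, for GM at 25 mM, 147, 186 and 162. It was higher in every DM culture than in any GM culture. The log2 change was 1.78 (SE 0.15, adjusted p = 4.06e-07 with limma) at 5 mM and 1.83 (SE 0.15, adjusted p = 2.86e-07) at 25 mM. A second probe set, 1418633_at, read 133 to 221 in DM and 64.04 to 114 in GM and was called higher by a smaller amount, 0.90 (SE 0.19, adjusted p = 0.00245) at 5 mM and 0.80 (SE 0.19, adjusted p = 0.00470) at 25 mM.

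Notch3 (1421965_s_at; chromosome 17, 32120820 to 32166896), a receptor also well known from vascular smooth muscle, read 503, 559 and 405 in DM at 5 mM and 530, 577 and 561 in DM at 25 mM. In GM it read 768, 695 and 737 at 5 mM and 701, 696 and 821 at 25 mM. The DM cultures lay below the GM cultures by a small margin. Its change on the log2 scale was -0.58 (SE 0.13, adjusted p = 0.00320 with limma) at 5 mM and -0.40 (SE 0.13, adjusted p = 0.0260) at 25 mM. Probe sets of the _s_at type can bind transcripts of related genes. The other probe set, 1421964_at, did not pass the test (-0.43, adjusted p = 0.211, and -0.31, adjusted p = 0.349), and the 2 correlated at only r = 0.41 over the 12 cultures. With the 18S block 1421964_at was called lower at 5 mM (-0.63, adjusted p = 0.00733). The 1421965_s_at call at 25 mM was lost under median centring (-0.20, adjusted p = 0.283) and without DM culture 1, DM culture 3 or GM culture 3 at 25 mM (-0.36, -0.40 and -0.32, with adjusted p = 0.0806, 0.0504 and 0.104).

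Jag1 (1434070_at on MB; chromosome 2, 137081451 to 137116520), a ligand of these receptors, varied widely between cultures. It read 67.2, 147 and 168 in DM at 5 mM and 11.4, 95.6 and 147 in DM at 25 mM, against 79.98, 122 and 66.8 in GM at 5 mM and, for GM at 25 mM, 29.1, 32.2 and 22.9. DM and GM overlapped at both glucose levels. The log2 change was 0.38 (95% interval -0.85 to 1.61, adjusted p = 0.852 with limma) at 5 mM and 0.82 (interval -0.41 to 2.05, adjusted p = 0.520) at 25 mM. These intervals include changes in either direction. Its 2 probe sets on MA, 0.906 to 42.1 over the 12 cultures, were not tested.

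Of the repressors downstream of Notch, Hey1 and Heyl were higher in DM and Hes1 did not pass the test. Hey1 (1415999_at; chromosome 3, 8663359 to 8667038) read 188, 144 and 148 in DM at 5 mM and 201, 180 and 158 in DM at 25 mM, against 36.7, 45.7 and 60.5 in GM at 5 mM and, for GM at 25 mM, 14.1, 35.7 and 16.4. Its log2 change was 1.42 (SE 0.22, adjusted p = 0.000168 with limma) at 5 mM and 2.28 (SE 0.22, adjusted p = 1.64e-06) at 25 mM. Its GM means were 47.6 at 5 mM and 22.1 at 25 mM. The second lay under 35.5, so at 25 mM Hey1 was tested through its DM readings. The size there ran from 1.51 with a pseudocount of 64 to 3.08 with 1.

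Heyl (1419302_at; chromosome 4, 123233556 to 123249870), a relative of Hey1, read 259, 305 and 269 in DM at 5 mM and 240.4, 262 and 263 in DM at 25 mM, against 118, 104 and 115 in GM at 5 mM and, for GM at 25 mM, 117, 106 and 97.4. Replicates lay close together and the media were fully apart. This was a log2 change of 1.17 (SE 0.13, adjusted p = 7.53e-06 with limma) at 5 mM and 1.12 (SE 0.13, adjusted p = 9.65e-06) at 25 mM. Its other probe sets, 1419303_at and 1438886_at, were called higher as well, with log2 changes of 1.27 and 1.08 at 5 mM and 1.04 and 1.04 at 25 mM. Their GM means were 24.0 and 32.6 at 5 mM and 21.5 and 43.8 at 25 mM, mostly under the 35.5 needed of the overall mean, so they entered the test through their DM readings. Within the high-18S cultures 1438886_at gave 0.86 (adjusted p = 0.245, with 1 GM culture) at 5 mM and 0.96 (adjusted p = 0.0507) at 25 mM.

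Hes1 (1418102_at; chromosome 16, 30065357 to 30067796), the best known target of Notch, read 130.05, 197 and 147 in DM at 5 mM and 155, 172 and 165 in DM at 25 mM, against 103, 116 and 170 in GM at 5 mM and, for GM at 25 mM, 178, 166 and 208. The media overlapped at both glucose levels. The log2 change was 0.26 (95% interval -0.13 to 0.65, adjusted p = 0.336 with limma) at 5 mM and -0.14 (interval -0.54 to 0.25, adjusted p = 0.576) at 25 mM. Within the high-18S cultures the value at 5 mM was -0.26 (adjusted p = 0.478), from 2 DM cultures and 1 GM culture.

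**Figure D2:**
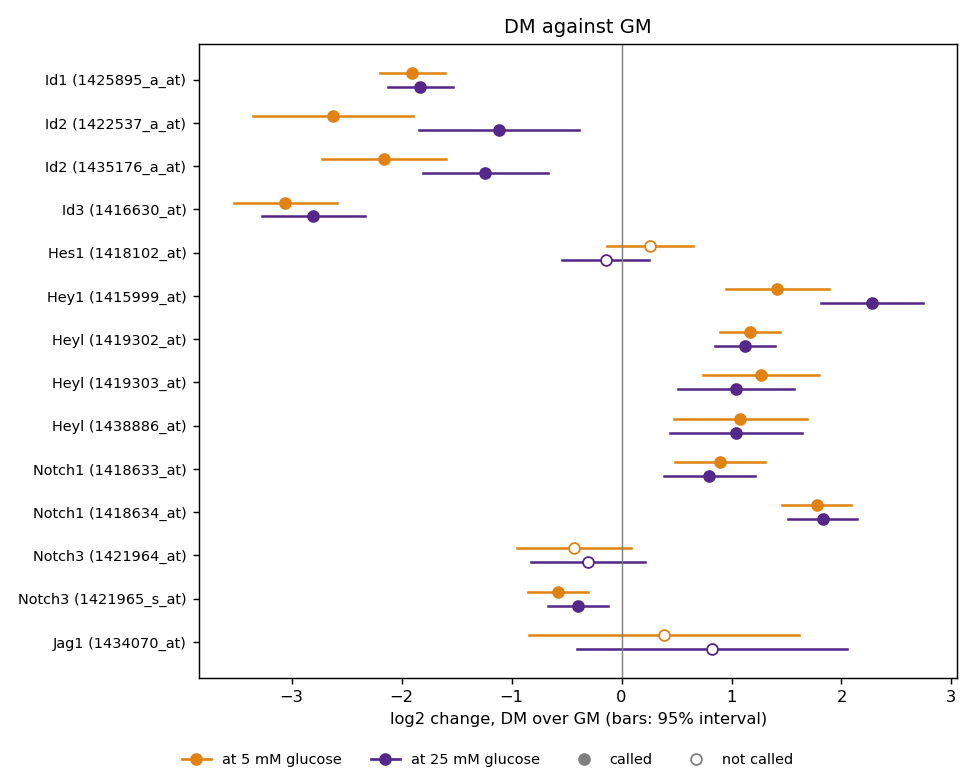
Log2 change of DM over GM (horizontal axis) for each tested probe set at 5 mM and 25 mM glucose, with 95% intervals from limma and filled points for an adjusted p under 0.05. The Id probe sets lie left of 0, those of Hey1, Heyl and Notch1 lie right of it, and the intervals of Hes1 and Jag1 include 0.

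The glucose comparisons ask what changed at 5 mM relative to 25 mM within a medium. In DM limma called 0 of the 9 genes, against 0.864% of all probe sets, and 2 had an unadjusted p under 0.05, Id1 and Id2. In GM limma called 0 of 9, against 0.00369% of all probe sets (1 of 27081), and 2 had an unadjusted p under 0.05, Hes1 and Hey1. The median log2 change of the 9 genes was -0.19 in DM and 0.03 in GM, beside 0.01 and -0.00 over all probe sets.

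Id2 had the glucose difference in DM with the smallest p. Both readings of the high-18S DM cultures at 5 mM, 11.1 and 12.8, lay below the 53.3 and 83.7 of the high-18S DM cultures at 25 mM, and in each group the low-18S culture was the highest, 58.2 at 5 mM and 121 at 25 mM. A fit without DM culture 2 at 5 mM therefore keeps a low-18S DM culture at 25 mM only. Over all cultures the groups overlapped, and the log2 change at 5 mM against 25 mM was -1.25 (SE 0.34, adjusted p = 0.103 with limma). With 2 dim readings at 5 mM, the size ran from -0.73 with a pseudocount of 64 to -1.94 with 1, neither called (adjusted p = 0.168 and 0.0883). With the 18S block it was -1.25 (SE 0.23, adjusted p = 0.00548), for high-18S cultures alone -1.45 (SE 0.29, adjusted p = 0.0363), and without DM culture 2 at 5 mM -1.68 (SE 0.29, adjusted p = 0.00766). The other probe set, 1435176_a_at, gave -0.77 (SE 0.26, adjusted p = 0.238), with the block -0.77 (adjusted p = 0.0162), and for high-18S cultures alone -0.61 (adjusted p = 0.317). Mki67 moved with it in DM, by -0.92 (adjusted p = 0.00148), and the part of cycling cells in the Id2 difference was not tested.

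In GM the same Id2 probe set differed by 0.26 (SE 0.34, adjusted p = 0.759 with limma), with overlapping groups. With the 18S block this GM difference was -0.27 (SE 0.27, adjusted p = 0.871). The interaction (glucose change in DM less the one in GM) called 0 of the 9 genes, against 0.284% of all probe sets, and 2 had an unadjusted p under 0.05, Id2 and Hey1. For Id2 it was -1.51 (SE 0.48, adjusted p = 0.248), and without DM culture 2 at 5 mM -1.94 (SE 0.38, adjusted p = 0.0338). With the 18S block the Id2 interaction was smaller and not called (-0.98, SE 0.35, adjusted p = 0.252). Among the high-18S cultures, with 1 GM culture at 5 mM, it was -1.45. With array weights over all 12 cultures it was called (-1.61, adjusted p = 0.0442).

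Id1 was lower at 5 mM than at 25 mM in both media without overlap of the cultures, by -0.31 (SE 0.14, adjusted p = 0.432 with limma) in DM and -0.24 (SE 0.14, adjusted p = 0.509) in GM. Neither passed the test. In DM it was the only one of the 9 representing probe sets without overlap, against 12.1% of probe sets, and the other Id2 probe set, 1435176_a_at, did not overlap either. In GM there were 3, Id1, Hey1 and Jag1, against 15.6% of probe sets.

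Hey1 read 36.7 to 60.5 in GM at 5 mM and 14.1 to 35.7 in GM at 25 mM, a log2 difference of 0.71 (SE 0.22, adjusted p = 0.404 with limma). In DM it differed by -0.15 (SE 0.22, adjusted p = 0.911), and the interaction of -0.86 (SE 0.31) had an adjusted p = 0.296. Jag1 read 66.8 to 122 in GM at 5 mM and 22.9 to 32.2 in GM at 25 mM, a log2 difference of 1.16 (SE 0.59, adjusted p = 0.710). Its GM readings at 25 mM all lay under 63.7, so it was tested through the other groups. In GM at 5 mM the low-18S cultures read highest, and with the 18S block the difference was 0.65 (SE 0.64, adjusted p = 0.981).

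Hes1 in GM read 103, 116 and 170 at 5 mM and 178, 166 and 208 at 25 mM, a log2 difference of -0.47 (SE 0.18, adjusted p = 0.438 with limma). The 2 low readings at 5 mM were those of the low-18S cultures, and among the high-18S cultures the difference was -0.10 (SE 0.20, adjusted p = 0.9999), which sets 1 culture at 5 mM against 3 at 25 mM. The part of the 18S division in it was not tested further. For Id3, Heyl, Notch1 and Notch3 the glucose differences of the representing probe sets lay between -0.30 and 0.11 in DM and between -0.25 and 0.07 in GM.

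**Figure D3:**
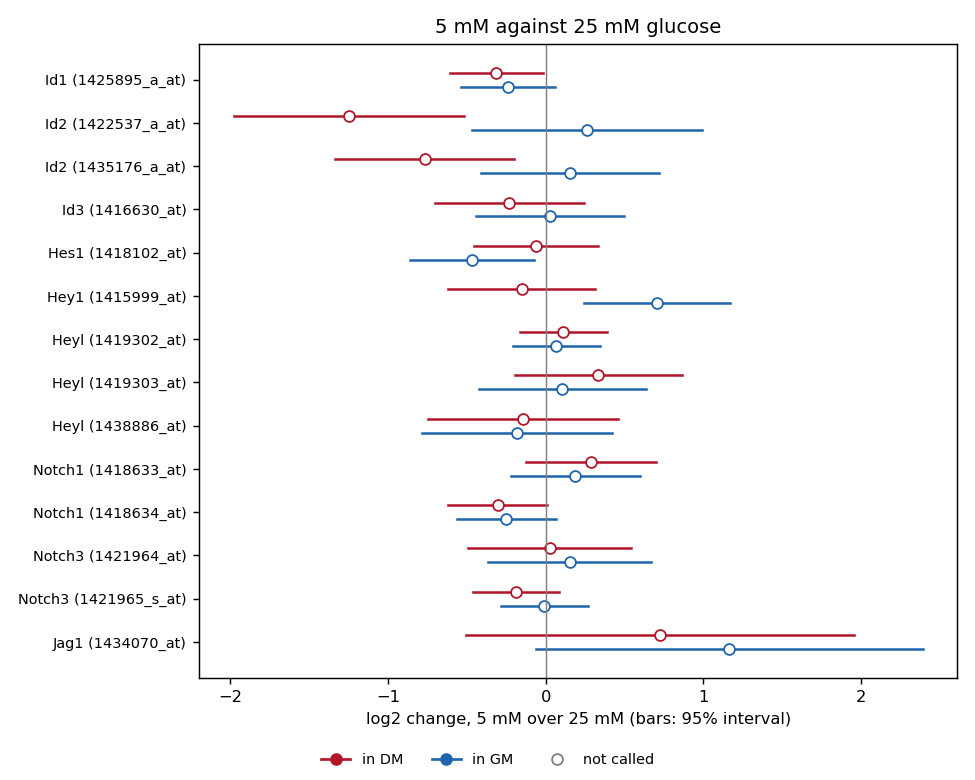
Log2 change of 5 mM over 25 mM glucose (horizontal axis) for each tested probe set in DM and in GM, with 95% intervals from limma. No point is filled, since none reached an adjusted p under 0.05, and the value farthest below 0 is that of Id2 in DM, -1.25.

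The rest of the pathway was read from 5 lists of other Notch, basic helix-loop-helix (bHLH) and BMP genes, 72 of which were tested. At 25 mM 10 of the 72 were called higher and 15 lower in DM, with a median log2 change of -0.15 (12 higher and 10 lower after median centring), and at 5 mM 8 higher and 13 lower, with a median of -0.19. Over all probe sets the shares called were 21.3% and 17.6%. The calls named here are at most the 4 with the smallest p in a list and comparison.

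Among 3 tested ligands and receptors, the Delta ligand Dll1 rose and the ligand Jag2 fell. Dll1 (1419204_at) read 517, 520.0 and 415 in DM at 5 mM and 506, 385 and 338 in DM at 25 mM, against 78.6, 105 and 139 in GM at 5 mM and, for GM at 25 mM, 99.4, 105 and 129. In log2 terms the change was 2.003 (SE 0.19, adjusted p = 1.58e-06 with limma) at 5 mM and 1.70 (SE 0.19, adjusted p = 7.09e-06) at 25 mM. All DM cultures lay above all GM cultures.

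Jag2 (1426430_at) read 99.7 to 124 in DM and 182 to 195 in GM at 5 mM, and 98.5 to 125 in DM and 181 to 194 in GM at 25 mM. It changed by -0.71 (SE 0.14, adjusted p = 0.00131) at 5 mM and -0.70 (SE 0.14, adjusted p = 0.00125) at 25 mM, although the high-18S test at 5 mM, with 1 GM culture, did not pass (-0.60, adjusted p = 0.0821). The receptor Notch2 (1455556_at) was lower at 25 mM (-0.55, SE 0.11, adjusted p = 0.000995) and at 5 mM did not pass (-0.27, adjusted p = 0.0690).

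Of 24 tested genes that process or modulate Notch and its ligands, 3 rose and 5 fell at 25 mM and 3 rose and 1 fell at 5 mM. Over all probe sets 21.3% were called at 25 mM and 17.6% at 5 mM. The falls at 25 mM numbered 2 to 6 under other processing and with left-out cultures. The largest change was that of Neurl1a, a ubiquitin ligase of the Neuralized family that acts on Notch ligands. Neurl1a (1460343_at) read 459.9 to 718 in DM and 95.3 to 115 in GM at 5 mM, and 483 to 541 in DM and 66.9 to 85.1 in GM at 25 mM, for log2 changes of 2.18 and 2.42 (SE 0.16 for both, adjusted p = 1.20e-07 and 3.91e-08 with limma). Dtx4, a ligase of the Deltex family, rose by 1.70 at 5 mM and 1.30 at 25 mM. Fbxw7, the substrate-binding part of a ligase whose targets include the Notch intracellular part, rose by 0.79 and 1.60.

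The falls in that list were smaller. Pofut1, which adds fucose to Notch receptors, changed by -0.91 (SE 0.19, adjusted p = 0.00174) at 25 mM. With a filter at the 60th percentile its MA probe set was no longer tested, and the MB probe set that then stood for it gave 0.37 (adjusted p = 0.715). Adam17, a protease that can cut Notch receptors, changed by -0.54 (SE 0.13, adjusted p = 0.00476) at 5 mM, and did not pass the high-18S test with 1 GM culture (-0.39, adjusted p = 0.210).

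Of 16 tested genes of the Notch nuclear complex and other targets, 1 rose and 3 fell at 25 mM and 1 rose and 4 fell at 5 mM. The shares called over all probe sets were 21.3% and 17.6%. The gene that rose was Hes6 (1436050_x_at), a Hes family member known to oppose Hes1. It read 902, 667 and 859.6 in DM at 5 mM and 1214, 1236 and 979.8 in DM at 25 mM, against 207, 190.0 and 297 in GM at 5 mM and, for GM at 25 mM, 225, 305 and 281. The log2 change was 1.73 (SE 0.18, adjusted p = 3.19e-06) at 5 mM and 2.01 (SE 0.18, adjusted p = 6.84e-07) at 25 mM. Hes6 and Hes1 thus gave different results in the same cultures, although no test compared them.

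Cyclin D1, Ccnd1 (1448698_at), changed by -1.20 (SE 0.19, adjusted p = 0.000268) at 5 mM and -2.49 (SE 0.19, adjusted p = 2.14e-07) at 25 mM. It read 245, 214 and 310.3 in DM at 5 mM and 136, 131 and 81.1 in DM at 25 mM, and was called higher at 5 mM within DM (1.03, SE 0.19, adjusted p = 0.0121). That call was lost without DM culture 3 at 5 mM (adjusted p = 0.0708) and with only the groups compared (adjusted p = 0.0749). The corepressor Tle2 fell by 1.26 at 5 mM and by 1.27 at 25 mM on the log2 scale, against a change of -1.02 (adjusted p = 0.0586) in the high-18S test at 5 mM with 1 GM culture. Snw1, a cofactor of the complex, changed by -0.58 (adjusted p = 0.00907) at 25 mM, which median centring ended (adjusted p = 0.0604), and the deacetylase Hdac1 by -0.64 (adjusted p = 0.00528) at 5 mM. Rbpj, the DNA-binding partner of Notch, chosen here after its values were seen, read 298 to 323 in DM and 277 to 295 in GM at 5 mM and was not called (0.11, adjusted p = 0.505, and -0.02 at 25 mM, adjusted p = 0.905).

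**Figure D4:**
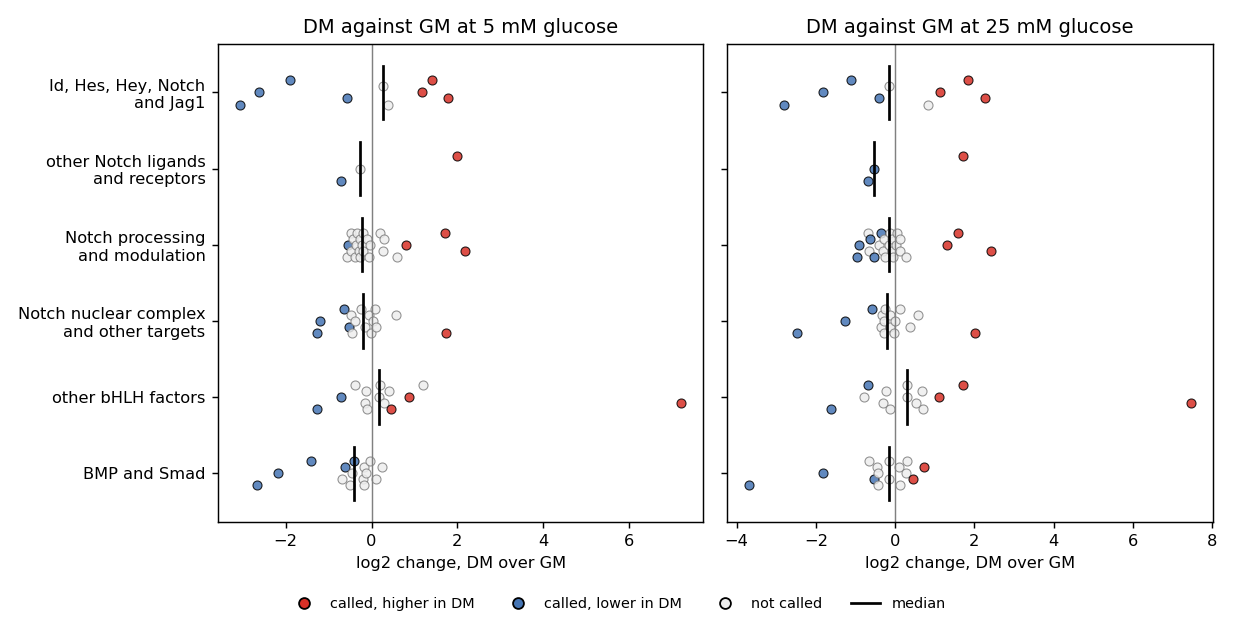
Log2 change of DM over GM (horizontal axis) at 5 mM and 25 mM glucose for the 9 genes and for the tested genes of 5 other lists, one point per gene, coloured by call, with a line at the list median. Each list holds called genes on both sides of 0 or calls on one side beside many uncalled genes, and Myog, dim in GM, lies far to the right at 7.22 and 7.45 with the pseudocount of 20.

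Among 14 tested factors of the bHLH list, 3 rose and 2 fell at each glucose level, against 21.3% of all probe sets called at 25 mM and 17.6% at 5 mM. Myog rose by 7.22 at 5 mM and 7.45 at 25 mM on the log2 scale. Its GM means, 20.6 and 14.8, lay under 35.5, so it was tested through its DM readings, and the size ran from 6.17 to 8.15 at 5 mM and from 6.26 to 8.71 at 25 mM with pseudocounts of 64 and 1. Tcf3, which encodes the E proteins E12 and E47 that Id proteins bind, changed by -0.71 (SE 0.15, adjusted p = 0.00187 with limma) at 5 mM and was lower at 25 mM too. Twist2, a repressor of muscle and bone differentiation, fell by 1.26 at 5 mM and by 1.61 at 25 mM. Scx, a factor known from tendon, rose by 0.87 and 1.10, against 0.48 (adjusted p = 0.246) in the high-18S test at 5 mM with 1 GM culture.

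Bhlhe40, a bHLH repressor of the Hairy-related group, was the only gene of these lists with a called interaction in the main fit. That of Ccnd1 lay just over the threshold (1.29, SE 0.27, adjusted p = 0.0553 with limma). Under the alternatives 0 to 1 interactions were called higher in the list of Ccnd1. Bhlhe40 read 198, 216 and 176 in DM at 5 mM and 399, 325 and 409.5 in DM at 25 mM, against 192, 189 and 133 in GM at 5 mM and, for GM at 25 mM, 69.1, 116 and 122. It was higher in DM at 25 mM (1.72, SE 0.19, adjusted p = 6.98e-06) and not called at 5 mM (0.19, adjusted p = 0.524). At 5 mM against 25 mM it was lower in DM (-0.87, SE 0.19, adjusted p = 0.0312), and in GM it differed by 0.66 (adjusted p = 0.404). The DM call held under 16 of 25 alternatives. It was lost with a pseudocount of 1, with eBayes without a trend, in the high-18S cultures (-0.88, adjusted p = 0.117) and with the replicate block (adjusted p = 0.0719). Leaving out DM culture 1 or 3 at 5 mM or any 1 DM culture at 25 mM lost it too (adjusted p up to 0.150).

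Of 15 tested BMP and Smad genes 2 rose and 3 fell at 25 mM, and 0 rose and 5 fell at 5 mM. All probe sets together had 21.3% called at 25 mM and 17.6% at 5 mM. Bmp4 (1422912_at), a ligand known to raise Id transcription, read 29.4, 50.4 and 59.2 in DM at 5 mM and 50.7, 45.0 and 42.8 in DM at 25 mM, against 347, 275 and 219 in GM at 5 mM and, for GM at 25 mM, 183, 221 and 237. Its log2 change was -2.18 (SE 0.20, adjusted p = 1.50e-06 with limma) at 5 mM and -1.81 (SE 0.20, adjusted p = 8.31e-06) at 25 mM. The secreted BMP antagonist Grem1 (1425357_a_at) fell too, to 30.1 to 66.4 in DM at 5 mM, against 341 to 604 in GM (-2.67, SE 0.23, adjusted p = 7.51e-07). At 25 mM it read 38.5 to 56.9 in DM and 736 to 959 in GM (-3.68, SE 0.23, adjusted p = 2.54e-08). A BMP ligand and a BMP antagonist were thus both lower in DM.

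Smad7, an inhibitory Smad, changed by -1.41 (SE 0.35, adjusted p = 0.00669) at 5 mM, where it read 10.9 to 87.5 in DM and 107 to 163 in GM. Smad4, the Smad shared by BMP and TGF-beta signals, changed by -0.41 (adjusted p = 0.0143) at 5 mM, a call lost without DM culture 3 or GM culture 1, and -0.47 (adjusted p = 0.0911) in the high-18S test with 1 GM culture. At 25 mM Smad1, a BMP-regulated Smad, rose by 0.46 (adjusted p = 0.0109) and the receptor Bmpr2 by 0.74 (adjusted p = 0.0272), the second lost under median centring (adjusted p = 0.0732), under quantile normalization (adjusted p = 0.176) and without culture 2 or 3 of either group.

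**Figure D5:**
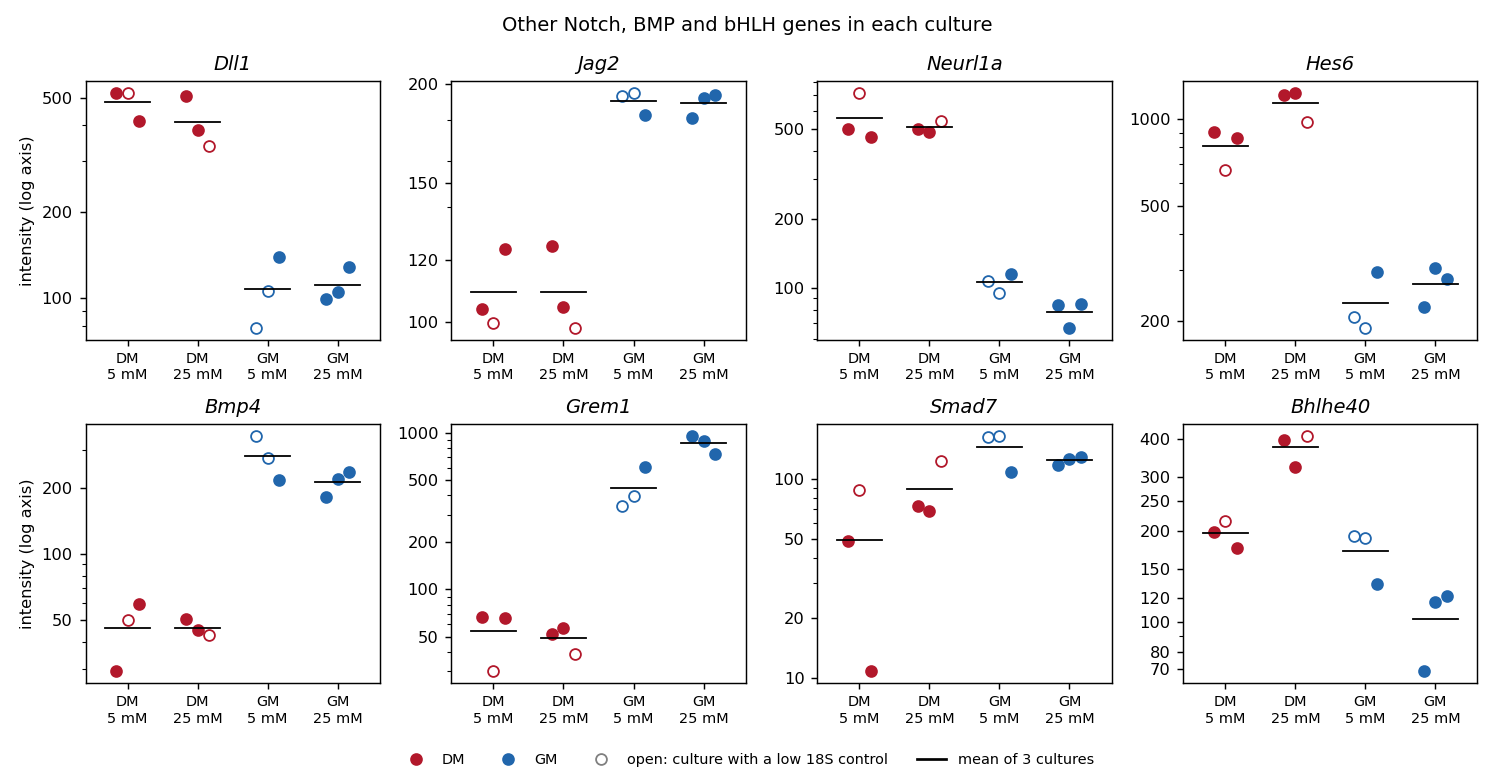
Probe set intensity (vertical log axis) in each of 12 cultures for 8 genes of the Notch, BMP and bHLH lists, by group, with open circles for low-18S cultures and a line at the mean of 3 cultures. Dll1, Neurl1a and Hes6 lie higher and Jag2, Bmp4 and Grem1 lower in every DM culture than in any GM culture, and Bhlhe40 is highest in DM at 25 mM.

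Glucose called 3 of the 72 genes in DM, Ccnd1 higher and Fbxw7 and Bhlhe40 lower at 5 mM, against 0.864% of all probe sets, and 0 of 72 in GM by limma, against 0.00369%. Fbxw7 (1451558_at) read 79.2, 93.9 and 114 in DM at 5 mM and 176, 189.9 and 254 in DM at 25 mM, a log2 change of -0.96 (SE 0.20, adjusted p = 0.0246), which held under 17 of 25 alternatives. It was lost, among others, in the high-18S cultures (adjusted p = 0.173) and without DM culture 1 or 2 at 5 mM or any 1 DM culture at 25 mM (adjusted p = 0.0502 to 0.120). Its interaction of -0.80 did not pass (adjusted p = 0.293).

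The genes most like each of the 9 were taken as the 3 with the highest Pearson r of log2 intensity over the 12 cultures, among 8116 genes on MA, or 4733 on MB for Jag1. The 12 points share the split by medium and the arrays, so that r is a description. Id1 was most like Tacc3, Ecm1 and Cks2 (r = 0.99 each), and Id3 like Spint1, Gas2 and Macroh2a1 (r = 0.99 each). Id2 was most like Osmr (0.98), Smad4 (0.97) and Kif22 (0.96). Notch1 was most like Porcn, Ctrb1 and Atp2a2 (0.99 each), Heyl like Neurl1a, Bag1 and Chchd4 (0.99 each), and Hey1 like Svil (0.97), Utp11 (0.96) and Timm17a (0.96). Notch3 was most like Shcbp1 (0.97), Kazald1 (0.96) and Spred2 (0.96). For Hes1 and Jag1 the highest values were lower, 0.76 with Fblim1 and 0.88 with Ypel2.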

How the data were processed

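RNA of 12 C2C12 cultures was measured on 2 array designs. The values are the intensities deposited by the authors, linear and with nearly the same trimmed mean on all arrays of a design. Software, build and filters are not given in the sources used here. Groups came from the sample titles. Genes were assigned from the platform annotation (on MA 20380 named 1 gene, 691 several and 1555 none; on MB 14661, 245 and 7605).

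Separate fits per design used limma 3.58.1 (R 4.3.3, statmod 1.5.0) on log2(intensity + 20), as 4 group means over 12 arrays, with eBayes and a trend, leaving 8 residual degrees of freedom. Controls and probe sets under the 40th percentile of mean intensity were left out, which left 13575 on MA and 13506 on MB. Tests were two-sided, adjusted by Benjamini-Hochberg within a design over all its tested probe sets. Across probe sets, replicate arrays correlated at 0.952 to 0.987 for MA and 0.797 to 0.919 for MB. The p-values rest on the spread among these samples alone, which may be technical.

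The 10 genes and all lists were chosen with earlier results of these data known. Named were every member, at most 4 called genes of each other list and comparison by smallest p (or the gene with the smallest p), the 3 most alike genes, and Myog, Myod1 and Mki67. Exceptions are marked. The code was tested on simulated data. Alternatives were other pseudocounts, filters, normalizations, fits and left-out cultures.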

Additional observations from a re-analysis of the deposited data

Results flagged for a closer look

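The glucose change of Bhlhe40 differed between the media by a test of the interaction. The log2 change at 5 mM against 25 mM was -0.87 (SE 0.19) in DM and 0.66 (SE 0.19) in GM, so that the interaction was -1.53 (SE 0.27, adjusted p = 0.0211 with limma). It was lower at 5 mM in all 3 DM cultures against all 3 at 25 mM, and higher in all 3 in GM. With the 18S block the interaction was -1.35 (adjusted p = 0.0157), within the high-18S cultures, with 1 GM culture at 5 mM, -1.23 (adjusted p = 0.365) and with the replicate block -1.53 (adjusted p = 0.0576). It also lost its call when DM culture 1 or 3 at 5 mM, DM culture 1 at 25 mM, or GM culture 1 or 2 at 5 mM was left out (adjusted p = 0.0554 to 0.0904). The part of the 18S division in it was not tested further.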

How the results depend on the processing

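Of 14 calls on the 9 genes, 11 held under all 25 alternatives and none turned its sign, the others being Id2 at 25 mM and Notch3 at both glucose levels. The number called between the media was 5 to 7 at 25 mM and 6 to 7 at 5 mM. In the main fit 21.3% and 17.6% of all probe sets were called. In DM glucose called 1 gene in place of 0, Id2, with array weights, with the 18S block and within the high-18S cultures, and 0 to 1 when 1 culture was left out. Of all 27081 probe sets, array weights called 316 in that comparison and the 18S block 613, in place of 234. In GM array weights called 1, Hes1 (-0.64, adjusted p = 0.0317), against 860 of all probe sets. The interaction called 1, Id2, with array weights (-1.61, adjusted p = 0.0442) and 0 to 1 when 1 culture was left out. Array weights called 331 interactions among all probe sets in place of 77. The cause of these changes was not tested. Without the _s_at and _x_at types Notch3 was represented by its other probe set and lost both calls. The alternatives for single genes of the 5 lists were added after seeing the data: 17 of 25 calls at 25 mM and 13 of 21 at 5 mM held under all of them, and 1, Pofut1, changed sign with the 60th percentile filter (0.37), where another probe set stood for it. No interaction was fitted with only the groups compared, and Jag1 was not tested at the 60th percentile.

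Over all probe sets, array weights called 860 in the GM glucose comparison in place of 1 and 331 interactions in place of 77, the 18S block 613 in the DM glucose comparison in place of 234 and 130 interactions. The high-18S cultures alone, with 1 GM culture at 5 mM, gave 2799 for DM against GM at 5 mM in place of 4777 and 17 interactions, fitting only the groups compared gave 112 in the DM glucose comparison, and eBayes without a trend gave 42 interactions. Median centring moved the share of higher calls among interactions from 29.9% to 14.1%. Leaving out 1 culture gave 129 to 247 calls in the DM glucose comparison, 28 to 103 interactions and 0 to 5 calls in the GM glucose comparison. Same-numbered cultures did not all deviate together (correlations -0.46 to 0.52 on MA), so the numbers were not taken as pairs. With the replicate block 7, 7, 0, 0 and 0 of the genes were called, as without it, against 5361, 4322, 163, 1 and 31 of all 27081 probe sets. The order is DM against GM at 25 mM and at 5 mM, glucose in DM and in GM, and the interaction. Dim readings limit Id2 in DM, Hey1, Myog and 2 Heyl probe sets in GM, Id4 and Jag1.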
